A study of Homo sapiens with 4 samples.

Results

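The cytosolic ribosomal protein genes were examined in H9 cells, an established line of human embryonic stem cells. They were chosen by gene symbol alone: every row of the table whose name is that of a small-subunit (RPS) or large-subunit (RPL) protein, with the stalk genes RPLP0, RPLP1 and RPLP2, RPSA, and the close paralogs RPL3L, RPL7L1, RPL10L, RPL22L1, RPL26L1, RPL36AL, RPL39L and RPS27L. Pseudogenes, the kinases of ribosomal protein S6 and the Y-linked copies of RPS4X were left out. The rule found 85 of 60671 rows, all protein-coding: 77 core genes, 31 of the small subunit and 46 of the large, and 8 paralogs. The filter at a mean of 1 TPM kept 84 of them among 12319 genes tested, and RPL10L was under it. TPM gives the transcripts of a gene, corrected for transcript length, on a scale with a common total for each library. FAU encodes a small-subunit protein fused to a ubiquitin-like one, and since the rule does not take its name it is given among the related genes.

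Poly(A)-selected RNA was sequenced from 4 libraries in 2 groups of 2. The first group was labelled as control H9 cells. The other carried an edited CFIm25 gene (NUDT21) together with overexpressed 3Flag-CFIm25 and is called KO+OE. The CFIm25 protein belongs to cleavage factor I and takes part in choosing where an mRNA is cut and polyadenylated. The labels are not uniform on the edit: the sample titles call it a knockout and the title of the series a knockdown. The study itself reports that its edited clones still made CFIm25, at a strongly lowered level and shortened at the N-terminus. In the study's rescue experiment, the tagged protein was put back by lentivirus into a single mutant clone. A difference between the groups therefore cannot be told apart from a difference between that clone and the control cells. Nothing says that the 2 libraries of a group came from separate cultures, and p-values measure only the spread between these libraries. Edited cells without re-expression were not analysed here.

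The ribosome is built of ribosomal RNA and about as many different proteins as there are core genes, most of them present once in each ribosome, the stalk proteins RPLP1 and RPLP2 being an exception. Their mRNAs are among the most abundant of growing cells. Many begin with a C followed by an unbroken run of pyrimidines, the terminal oligopyrimidine (TOP) motif, through which the mTOR kinase and the RNA-binding protein LARP1 set their translation and stability together with those of elongation factors. Rapidly dividing stem cells carry large amounts of these mRNAs.

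The first bases of the mRNAs show this shared feature, which the name rule did not use. Sequences are from RefSeq on GRCh38.p14 and run 5′ to 3′, with 10 bases before the listed start and 20 from it on. The capitals mark the unbroken run of C and T that begins at the listed start. Starts were not mapped in these cells. The first group holds 4 of the 5 most abundant genes. The second holds genes with the lowest p-values or the largest differences without overlap, except RPL7L1, which is in the third. RPS2 belongs to both groups but had no RefSeq promoter entry. The third holds paralogs, with the core genes RPL36A, RPL22 and RPL26 beside theirs. RPS27 is in the first group, and RPL7 had no entry. The paralog RPL10L has an entry but is not shown, and RPL3L and RPL39L had none.
RPL41, chr12:56116623-56116652, plus strand: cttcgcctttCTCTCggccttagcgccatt
RPS27, chr1:153990752-153990781, plus strand: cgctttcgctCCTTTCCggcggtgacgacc
RPL13, chr16:89560672-89560701, plus strand: gggccgcttcCTTTCCgctcggctgttttc
RPLP0, chr12:120201092-120201121, minus strand: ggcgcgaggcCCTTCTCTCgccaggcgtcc
RPS6, chr9:19380217-19380246, minus strand: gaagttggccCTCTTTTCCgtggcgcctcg
RPS23, chr5:82278335-82278364, minus strand: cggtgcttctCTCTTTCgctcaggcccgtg
RPS21, chr20:62387093-62387122, plus strand: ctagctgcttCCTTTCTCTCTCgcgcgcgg
RPL36, chr19:5690285-5690314, plus strand: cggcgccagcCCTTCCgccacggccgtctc
RPS29, chr14:49598691-49598720, minus strand: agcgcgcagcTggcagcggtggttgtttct
RPL36A, chrX:101391001-101391030, plus strand: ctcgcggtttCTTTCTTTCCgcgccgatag
RPL36AL, chr14:49620607-49620636, minus strand: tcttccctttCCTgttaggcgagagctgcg
RPL22, chr1:6199576-6199605, minus strand: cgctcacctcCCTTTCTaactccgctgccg
RPL22L1, chr3:170870176-170870205, minus strand: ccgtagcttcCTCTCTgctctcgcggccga
RPL26, chr17:8383174-8383203, minus strand: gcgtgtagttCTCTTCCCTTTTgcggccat
RPL26L1, chr5:172958719-172958748, plus strand: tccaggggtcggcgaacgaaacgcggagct
RPS27L, chr15:63157458-63157487, minus strand: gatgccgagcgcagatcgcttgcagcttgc
RPL7L1, chr6:42879606-42879635, plus strand: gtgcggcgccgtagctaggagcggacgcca

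RPL13 has 3 listed starts and RPL26L1 has 2; a start with a pyrimidine run is shown where there is one, and otherwise the first. The longest of these runs are the 12 pyrimidines of RPS21 and RPL26. RPS29 begins with a T followed by GG, and RPS27L, RPL7L1 and RPL26L1 begin with a purine. A start was counted as a pyrimidine start when a C was followed by at least 4 further C or T. Of the 85 genes, 68 had a RefSeq promoter entry, and 46 of 62 core genes (74.2%) had such a start, against 5.14% of the 27305 genes with an entry. Among the paralogs it was found in 1 of 6, RPL22L1. The core genes with an entry and without such a start were RPS15, RPS29, RPL15, RPL3, RPL4, RPL27, RPL19, RPL32, RPL9, RPL10A, RPS7, RPS28, RPS4X, RPL17, RPL6 and RPS26, 16 in all. A listed start that is off by a few bases would change this call, so absence here does not show that an mRNA lacks the motif. In the promoter entries, 250 bases before and 50 after the start, the letters CCGGAAG, those of an ETS factor site, stood on either strand in 22 of 62 core genes (35.5%) and in 12.2% of all genes, and TATAAA in 5 (8.06%) and 14%. Read on the other strand CCGGAAG contains CTTCC and can overlap a pyrimidine run, and a match is a description of the sequence only.

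Median levels lay close with and without this feature: the 46 core genes with a pyrimidine start had a median of 2450 TPM (137 to 9204) and the 16 without one a median of 2348 TPM (406 to 4582). The core genes together were among the most abundant in the cells. Their mean levels over the 4 libraries ran from 137 TPM for RPL36A to 9204 TPM for RPL41, a 67.2-fold range, with a median of 2442 TPM. Of the 77 core genes, 60 were above 1000 TPM and 13 above 5000 TPM. They held 34 of the 50 highest rows outside the mitochondrial genome and 60 of the 100 highest. The small subunit genes had a median of 2477 TPM and the large subunit genes 2301 TPM. The genes lay on 21 chromosomes, with 12 of the 85 on chromosome 19 and 4 on X.

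**Figure D1:**
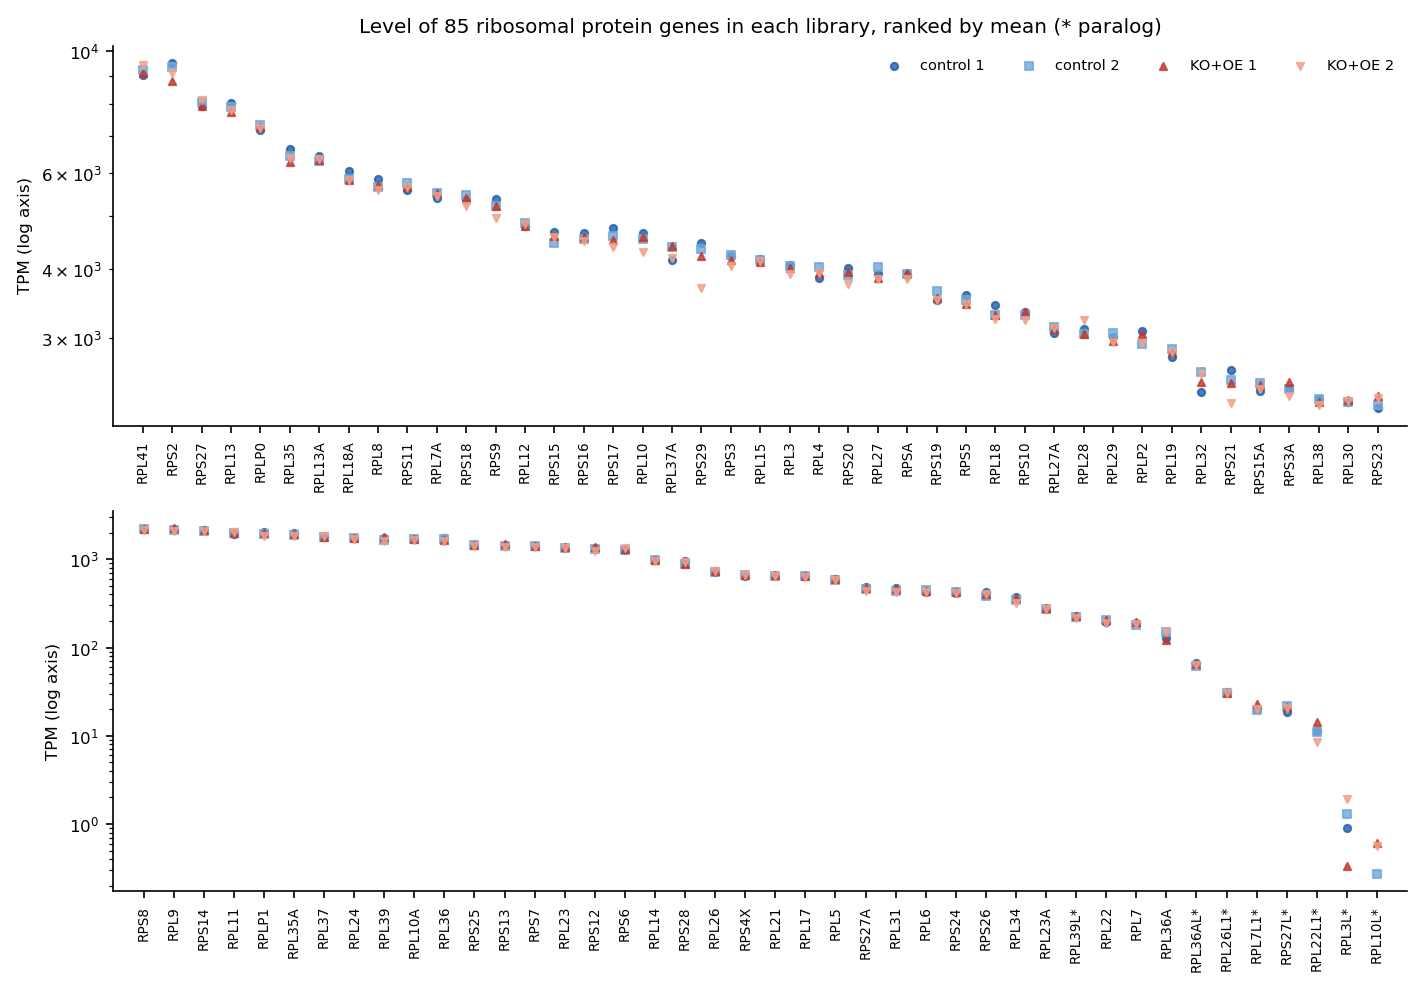
TPM on a log axis of the 85 genes in each of the 4 libraries, ranked by mean level, with circles and squares for control and triangles for KO+OE. The 4 points of most core genes coincide, RPS29 and RPL36A are spread more widely, and the paralogs, marked with an asterisk, take 8 of the 11 lowest places.

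RPL41, which encodes the smallest protein of the ribosome, was highest. It measured 9056 and 9221 TPM in control and 9129 and 9409 TPM in KO+OE. RPS2 (chr16:1962058-1964826), whose protein lies where the mRNA enters the small subunit, came next at 9515 and 9339 TPM in control and 8815 and 9127 TPM in KO+OE. These 2 genes changed places between libraries, RPS2 being the higher in both control libraries and RPL41 in both KO+OE libraries. RPS27, a zinc finger protein of the small subunit, measured 7954, 8075, 7923 and 8149 TPM, in the order control 1, control 2, KO+OE 1 and KO+OE 2 that is used for every list of 4 values. RPL13 measured 8027, 7892, 7746 and 7800 TPM, so that it was above RPS27 in control 1 and below it elsewhere. RPLP0, which anchors the stalk that recruits elongation factors, measured 7191, 7326, 7268 and 7243 TPM, below the preceding 4 genes in every library.

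At the low end of the core genes stood RPL36A, with 127, 149, 123 and 149 TPM. It was low in the first library of each group, and the spread within a group exceeded the difference between groups. RPL7 measured 188, 181, 195 and 185 TPM. RPL22, an RNA-binding protein that is dispensable for ribosome assembly in many cells, measured 196, 205, 203 and 192 TPM, and RPL23A, at the exit of the peptide tunnel, 276, 271, 280 and 272 TPM. RPL7 and RPL22 overlapped in range, while RPL36A lay below both and RPL23A above both in all 4 libraries.

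The level of a core gene moved with the GC content of its canonical transcript, and the order was alike in each library. Spearman's rank correlation between TPM and GC content over the 77 core genes was 0.629 and 0.628 in control and 0.620 and 0.619 in KO+OE. The 22 genes under 45% GC had a median of 1147 TPM (137 to 4288), the 26 from 45 to 50% a median of 2165 TPM, the 16 from 50 to 55% a median of 4548 TPM, and the 13 from 55% on a median of 3561 TPM (1684 to 9199). The rank correlation with transcript length was -0.090, and with the number of rows named as pseudogenes of the gene it was -0.35. These are descriptions across genes of the same libraries, and what GC content does in amplification or counting was not tested.

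**Figure D2:**
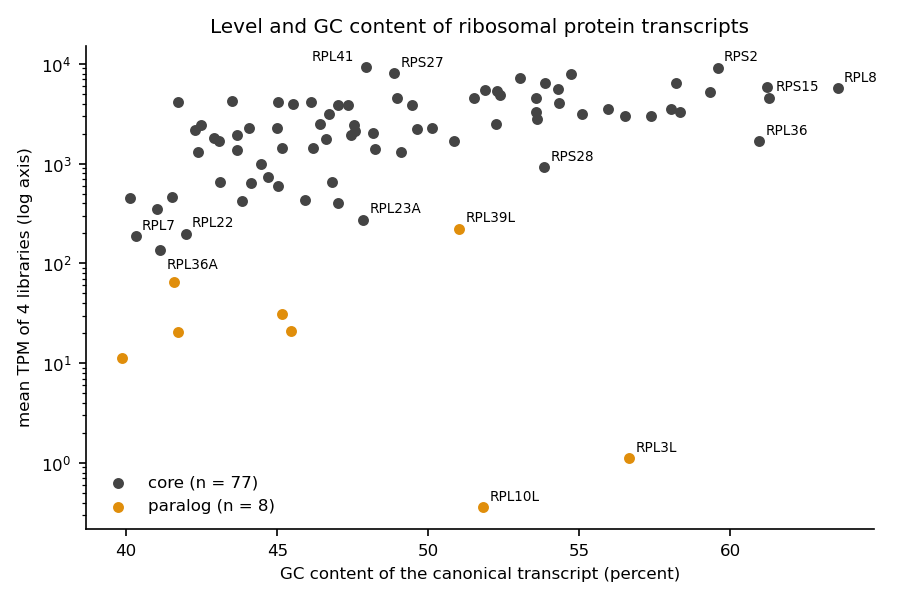
Mean TPM of the 4 libraries, on a log axis, against the GC content of the canonical transcript in percent, with dark points for the 77 core genes and orange points for the 8 paralogs. RPL36A, RPL7 and RPL22, the 3 lowest core genes, lie under 45% GC, whereas no core gene from 55% GC on is under 1684 TPM.

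Several core genes, low ones among them, had processed copies listed at sizeable TPM. Ribosomal protein genes have more retrocopies than most families, and how reads that match several copies were counted is not given in the sources used here. The table held 1242 rows named as pseudogenes of these genes, of which 285 were above 0 in at least 1 library. The row RPL23AP42 measured 738, 727, 749 and 776 TPM, above RPL23A itself in every library. RPS28P7 measured 1398, 1363, 1233 and 1234 TPM beside 954, 896, 880 and 933 TPM for RPS28, so that the copy again exceeded the gene. RPL39P3 measured 930, 1092, 709 and 1162 TPM beside 1762, 1656, 1771 and 1612 TPM for RPL39. The library with the most RPL39P3 had the least RPL39 and the reverse, and their sum with the other RPL39 copies, 2693, 2750, 2481 and 2774 TPM, spread 1.118-fold from lowest to highest, against 1.638-fold for the copy alone and 1.098-fold for RPL39 alone. RPL22P1 measured 47.7, 59.4, 66.4 and 53.7 TPM beside RPL22. The levels of RPL23A, RPS28, RPL39, RPL22 and RPL21, the last with a copy at 390 to 435 TPM, are therefore uncertain. RPS2 had 13 copies above 0, with a mean sum of 509 TPM or 5.53% of RPS2 itself, and its level carries the same doubt. Of read-through genes that overlap a member, RPL36A-HNRNPH2 measured 37.2, 46.4, 54.4 and 16.9 TPM, a sizeable amount beside RPL36A, and reads of the 2 cannot be told apart here.

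The comparison of the groups asks how near the re-expressing line stood to control cells in its ribosomal protein mRNAs. The 85 genes together took 23.6% and 23.5% of the summed TPM in control and 23.4% and 23.1% in KO+OE. The means were 23.6% ± 0.0861 (SD, n = 2) and 23.2% ± 0.212 (SD, n = 2), a difference of -0.342 percentage points. Without the second KO+OE library the difference was -0.192 points, and without the first -0.492 points. Both KO+OE libraries lay below both control libraries; the two-sided exact permutation p was 0.333, the smallest that 2 against 2 allows. In bulk samples like these, fewer cells with a transcript and less of it per cell cannot be told apart.

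Transcripts of the mitochondrial genome differed in the opposite direction, with 20.96% and 21.08% of the summed TPM in control and 21.58% and 22.05% in KO+OE. TPM adds up to a fixed total, so a larger mitochondrial part leaves less for every other gene. Of the total without the mitochondrial genome, the ribosomal protein genes took 29.9% and 29.8% in control and 29.8% and 29.6% in KO+OE. On that scale the groups overlapped and differed by -0.135 percentage points (exact permutation p = 0.667). The small subunit core genes took 10.02% and 9.94% of all TPM in control and 9.87% and 9.67% in KO+OE, and the large subunit core genes 13.6% and 13.5% against 13.5% and 13.4%. The small subunit made up 42.5% and 42.4% of the core sum in control and 42.3% and 42.0% in KO+OE, a ratio that the mitochondrial part does not enter (exact permutation p = 0.333). The 8 paralogs together took 0.0382% and 0.0374% in control and 0.0387% and 0.0367% in KO+OE.

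**Figure D3:**
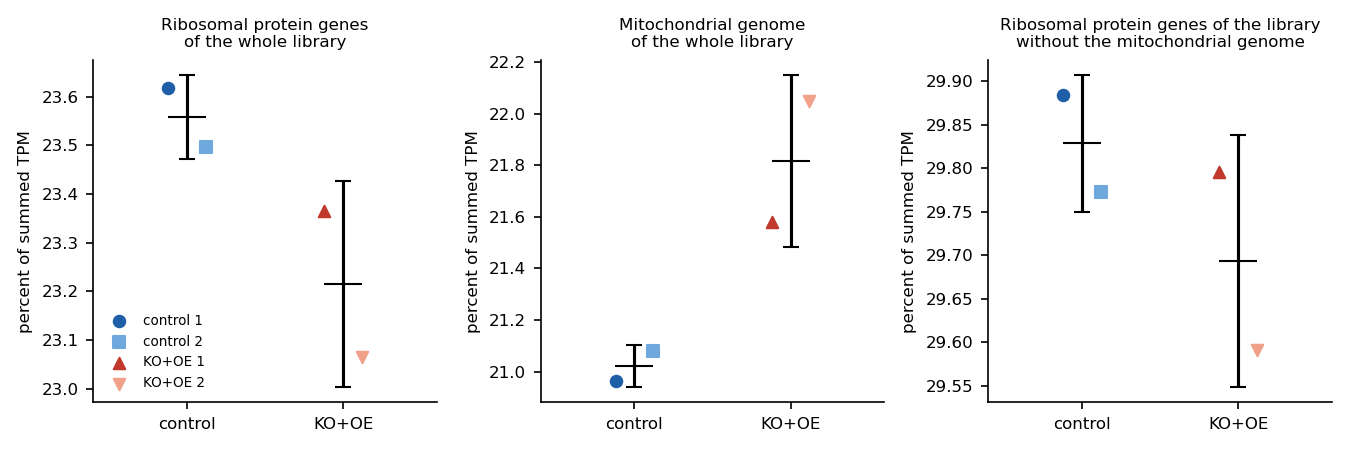
Percent of the summed TPM taken by the 85 ribosomal protein genes (left), by the mitochondrial genome (middle), and by the ribosomal protein genes once the mitochondrial genome is left out (right), with 1 point per library, the group mean as a line and the SD of 2 libraries as the bar; the axes do not begin at 0. KO+OE lies below control on the left and above it in the middle, and the groups overlap on the right.

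Gene by gene, no ribosomal protein gene passed the test. Under limma with Benjamini-Hochberg adjustment over all genes, 0 of 84 reached an adjusted p of 0.05, where 1 of all 12319 genes (0.00812%) did, and the lowest adjusted p of a member was 0.928. At an unadjusted p under 0.05 there were 3 of 84 members, against 5.33% of all genes. Of these 2 were lower in KO+OE, against 3.06% of all genes, and 1 was higher, against 2.26%. The other settings tried also gave 0 members at the adjusted threshold. In simulated data the fit recovered 0% of 1.1-fold changes, so a count of 0 does not speak to differences of that size. Differences were small: the median absolute log2 fold change of the core genes was 0.024, with a median standard error of 0.027. The 95% confidence interval lay within 1.2-fold for 74 of 77 core genes, the exceptions being RPS29, RPL34 and RPL36A, and within 1.1-fold for 60. These intervals rest on 2 libraries per group and on a prior that depends on mean level, and they were not counted under other settings. Without that prior the lowest unadjusted limma p of a member was 0.178, in place of 0.0364.

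**Figure D4:**
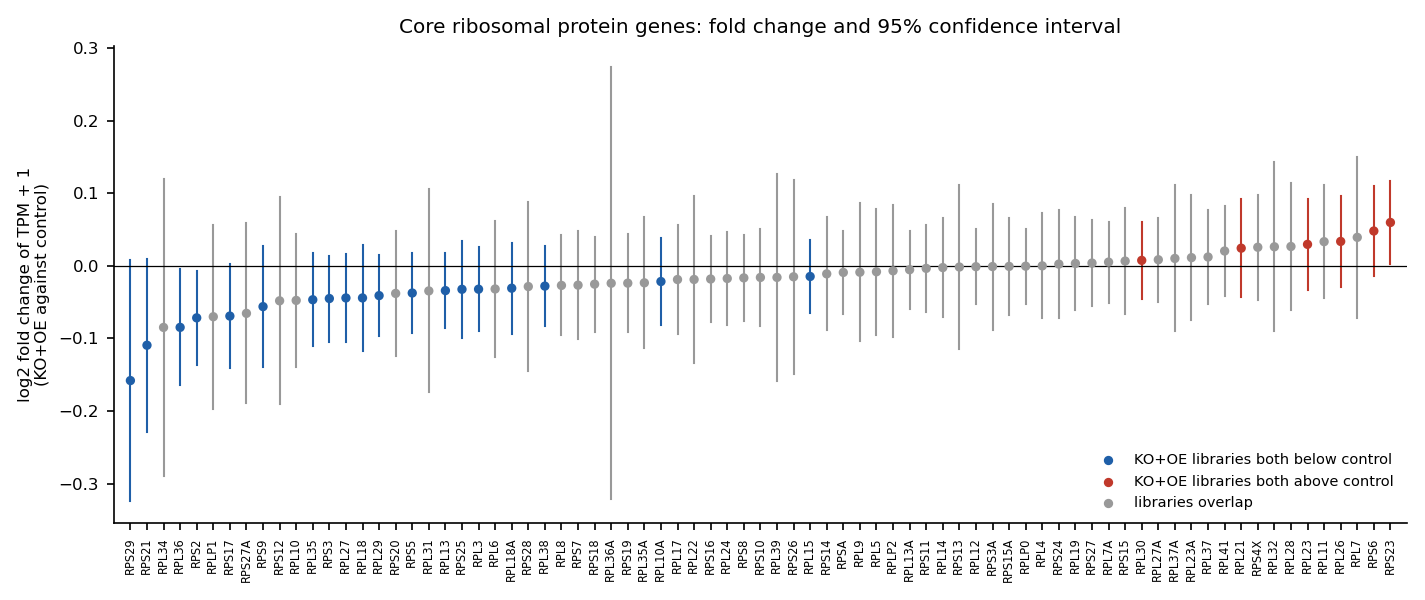
Log2 fold change of TPM + 1, KO+OE against control, with limma's 95% confidence interval for the 77 core genes in order of size, blue where both KO+OE libraries were below both control libraries and red where both were above. The points run from -0.16 for RPS29 to 0.06 for RPS23, and all but 3 intervals cross 0.

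More members were lower than higher in KO+OE, 60 of 84 (71.4%) against 54.5% of all genes tested and 57.7% of genes at 100 TPM or more. Their median log2 fold change was -0.016 and that of all genes -0.012. In 20 members both KO+OE libraries were below both control libraries, against 19.6% of all genes, and in 7 both were above, against 14.5%. This lean was smaller on another scale and was absent on leaving out the second KO+OE library, and its cause was not tested. With values rescaled to the total without the mitochondrial genome, 45 of 84 members were lower (53.6%, all genes 49.7%), 11 lay wholly below (all genes 16.8%) and 8 wholly above (all genes 17.1%), with a median of -0.0016. On the deposited scale, without the first KO+OE library, 60 of 84 were lower and the median was -0.031 (all genes -0.021). Leaving out the first or second control library gave 55 and 53 lower, with medians of -0.013 and -0.020. Without the second KO+OE library 42 of 84 were lower and the median was 0.00090. That library held the lowest value of 41 of the 77 core genes, the first KO+OE library of 10, and a control library of 26. The small subunit genes were lower in 25 of 31 cases, with a median of -0.018, and the large subunit genes in 31 of 46, with a median of -0.012. Core genes with a pyrimidine start and those without had the same median, -0.017.

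The 3 members at an unadjusted p under 0.05 had limma adjusted p-values of 0.928. RPS2, with the values given above, had a log2 fold change of -0.07 (95% confidence interval -0.14 to -0.0067, unadjusted p = 0.0364). RPL36 (chr19:5690295-5691875), a small protein of the large subunit, measured 1761 and 1705 TPM in control and 1665 and 1603 TPM in KO+OE, with -0.08 as its log2 fold change (-0.16 to -0.0049, unadjusted p = 0.0414). RPS23 (chr5:82273320-82278354), which lies at the decoding centre, measured 2232 and 2268 TPM in control and 2356 and 2334 TPM in KO+OE, with 0.06 as its log2 fold change (0.0028 to 0.12, unadjusted p = 0.0428). In each the libraries of the groups did not overlap, which is no separate evidence, since the genes were picked by p-value from the same libraries.

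Among the 84 genes tested, the largest differences without overlap were those of RPS29, RPS21 and RPL36 downward and of RPL7L1, RPS23 and RPS6 upward. RPS29 (chr14:49570988-49598710), a zinc-binding protein of the small subunit, measured 4470, 4363, 4231 and 3703 TPM, with a log2 fold change of -0.16 (95% confidence interval -0.32 to 0.0081, limma adjusted p = 0.931). Its second KO+OE library stood well below the first, and without that library the log2 fold change was -0.06. RPS21 measured 2626, 2513, 2479 and 2288 TPM, with a log2 fold change of -0.11 (-0.23 to 0.0097). Without the second KO+OE library it was -0.05. RPS6, the substrate of the S6 kinases, measured 1290, 1289, 1318 and 1348 TPM, a log2 fold change of 0.05 (-0.014 to 0.11). The control libraries of RPS6 differed by less than 1 TPM, and both KO+OE libraries were above them.

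The proteins of the stalk and their base are RPLP0, RPLP1, RPLP2 and RPL12. All 4 overlapped between the groups. RPLP1 measured 2054, 1925, 1965 and 1825 TPM, a log2 fold change of -0.07 (-0.20 to 0.057) that was -0.017 without the second KO+OE library, and RPLP2 measured 3083, 2927, 3046 and 2934 TPM. Both were higher in the first library of each group. RPL12 stayed between 4801 and 4858 TPM, with a log2 fold change of -0.0012 (-0.053 to 0.050). The sum of the 4 was 17128 and 17036 TPM in control and 17087 and 16845 TPM in KO+OE.

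RPL5 and RPL11 join the 5S ribosomal RNA before it enters the large subunit, and, when free, bind the p53 inhibitor MDM2. RPL5 measured 602, 585, 602 and 578 TPM and RPL11 measured 1953, 2011, 1990 and 2067 TPM. RPL11 was thus above RPL5 in every library, and both overlapped between groups, with log2 fold changes of -0.0082 and 0.03. Along the peptide exit tunnel (RPL4, RPL17, RPL19, RPL22, RPL23A, RPL26, RPL31, RPL35 and RPL39), 6 of 9 genes were lower and 3 higher, with a median of -0.016. Of all genes tested 54.5% were lower. By limma 0 of the 9 had an unadjusted p under 0.05, against 5.33% of all genes.

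RPS27A makes its small-subunit protein as a fusion to ubiquitin. It measured 481, 462, 469 and 433 TPM, a log2 fold change of -0.07 (-0.19 to 0.058), which was -0.0081 without the second KO+OE library. FAU, which carries a ubiquitin-like part, measured 2663, 2612, 2517 and 2454 TPM. Both KO+OE libraries of FAU were below both control libraries, at a log2 fold change of -0.09 (-0.15 to -0.022), and it did not pass the adjusted test (limma adjusted p = 0.928). RPSA, known also as a laminin receptor precursor, measured 3907, 3917, 3936 and 3839 TPM. RPS19, the gene most often mutated in Diamond-Blackfan anaemia, measured 3523, 3658, 3543 and 3518 TPM. Both overlapped between the groups, with log2 fold changes of -0.0092 (-0.067 to 0.049) and -0.02 (-0.091 to 0.043).

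Each paralog was below its core gene in all 4 libraries. RPL36AL, a retrocopy that encodes nearly the same protein as RPL36A, took 34.5% and 29.5% of its pair in control and 34.9% and 30.01% in KO+OE. RPL36AL itself was steady at 67.1, 62.1, 65.9 and 63.7 TPM, while RPL36A varied, so the share was higher in the first library of each group. RPL39L (chr3:187120948-187139496), a paralog best known from the testis that lines the exit tunnel, took 11.4% and 11.8% in control and 11.3% and 11.8% in KO+OE, at 228, 222, 226 and 216 TPM. It was the most abundant paralog, above the core genes RPL22, RPL7 and RPL36A in every library. With its copies counted in, RPL22 measured 247, 268, 274 and 251 TPM and was above RPL39L throughout. With the copies of RPL39 counted in, its mean share was 7.71% in place of 11.6%.

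RPL7L1, which acts in assembly of the large subunit, measured 20.3, 19.8, 22.9 and 20.4 TPM. It took 9.72% and 9.84% of its pair with RPL7 in control and 10.5% and 9.91% in KO+OE, with no overlap (exact permutation p = 0.333), and its log2 fold change was 0.10 (-0.10 to 0.31). Without the first KO+OE library the log2 fold change was 0.022 and the difference in share 0.134 percentage points in place of 0.440. RPL22L1, whose level is known to respond to loss of RPL22, measured 11.2, 11.1, 14.4 and 8.53 TPM, or 5.41%, 5.14%, 6.6% and 4.25% of the pair. The control libraries lay between the 2 KO+OE libraries. With the copies of RPL22 counted in, the mean share was 4.15% in place of 5.35% and the difference between groups was -0.029 percentage points in place of 0.151. RPL26L1 took 4.23% and 4.10% in control and 3.98% and 4.01% in KO+OE, again with no overlap (exact permutation p = 0.333). RPS27L, a p53 target, measured 18.6, 21.9, 20.9 and 20.5 TPM, 0.25% of its pair on average. RPL3L, the form of heart and skeletal muscle, was listed at 0.91, 1.30, 0.33 and 1.93 TPM, and RPL10L, an intronless copy used in male germ cells, at 0, 0.27, 0.61 and 0.56 TPM. The KO+OE libraries of RPL10L were both above the control libraries, but it was under the filter and was not tested, and the table gives no counts from which to judge values this low. None of the 8 pairs could pass 0.05, since 0.333 is the smallest exact permutation p of this design.

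**Figure D5:**
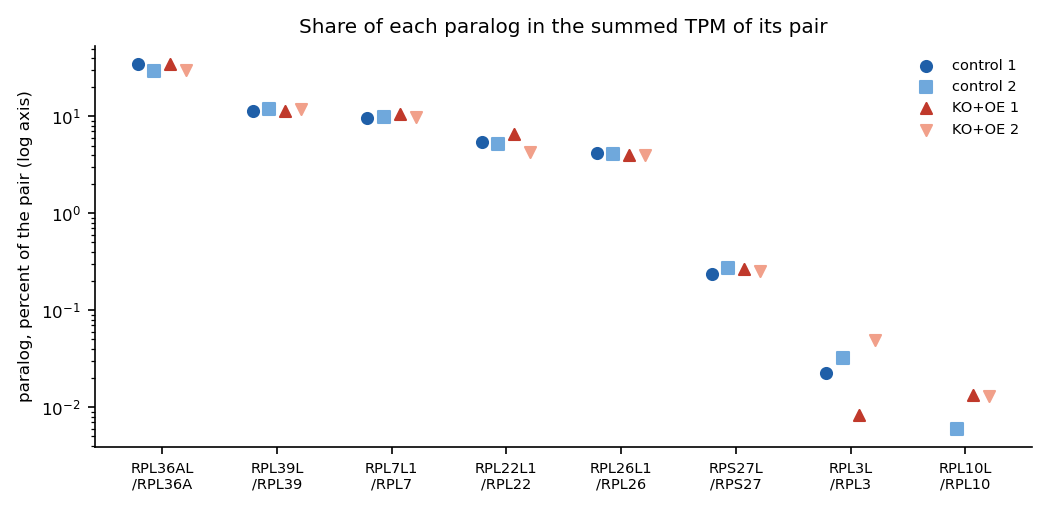
Share of each paralog in the summed TPM of its pair, in percent on a log axis, with 1 symbol per library; the control 1 value of RPL10L is 0 and is not drawn. RPL36AL leads at 29.5 to 34.9%, RPL3L and RPL10L lie under 0.05%, and the libraries of the groups overlap in 5 of the 8 pairs. For comparison, of all single genes tested 19.6% lay wholly below control in KO+OE and 14.5% wholly above.

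Of 18 other genes of translation and of TOP mRNAs, 12 were higher and 6 lower in KO+OE, with a median log2 fold change of 0.024, where 54.5% of all genes were lower, and 0 passed the adjusted test. Of these, 3 had an unadjusted p under 0.05 by limma, against 5.33% of all genes: FAU, given above, BTF3 and NAP1L1. BTF3, a subunit of the complex that meets new peptides at the ribosome, measured 507 and 509 TPM in control and 536 and 533 TPM in KO+OE. NAP1L1, a histone chaperone with a TOP mRNA, measured 103 and 102 TPM in control and 109 and 114 TPM in KO+OE. EEF1A1, the elongation factor that brings aminoacyl-tRNA, measured 9547 and 9615 TPM in control and 9954 and 9735 TPM in KO+OE (log2 fold change 0.04, -0.014 to 0.092), above RPL41 in every library. A pyrimidine start was found in 12 of the 13 genes of this list with a promoter entry. Among 6 regulators (MYC, LARP1, MTOR, RPTOR, EIF4EBP1 and MDM2), 3 were higher and 3 lower. By limma 1 of them, MTOR, had an unadjusted p under 0.05, against 5.33% of all genes. MTOR, the kinase that acts on TOP mRNAs, measured 14.3 and 14.5 TPM in control and 16.8 and 16.8 TPM in KO+OE, with 0.21 as its log2 fold change (0.033 to 0.39, limma adjusted p = 0.928). LARP1 overlapped at 59.1 to 64.6 TPM.

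The edited gene NUDT21 measured 161, 152, 162 and 157 TPM, a log2 fold change of 0.03 (-0.086 to 0.14). A row that sums edited and re-expressed transcripts does not check the labels. The stem cell markers POU5F1, NANOG, SOX2, LIN28A, DPPA4 and TDGF1 were all present, from 15.9 TPM for NANOG to 2212 TPM for POU5F1, and summed to 3043 to 3074 TPM over the libraries. Of the endoderm markers SOX17 was listed at 0 in all libraries and FOXA2 reached at most 0.02 TPM, while GATA6 measured 5.96, 8.39, 4.35 and 7.31 TPM. Mesoderm and ectoderm markers reached at most 0.32 TPM, and of the fibroblast markers DCN and LUM were at or near 0 while COL1A1 was at 53.9 to 55.6 TPM. None of the marker genes tested had an unadjusted p under 0.05 by limma, which covers 6 of 6 stem cell, 1 of 3 endoderm, 2 of 4 fibroblast and 0 mesoderm or ectoderm markers, the others being under the filter. Depth is unknown, since the files hold no counts; replicates of core genes differed by a median of 0.035 in control and 0.040 in KO+OE on the log2 scale.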

How the data were processed

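RNA-seq of 4 poly(A)-selected H9 libraries was used, 2 control and 2 KO+OE, with groups and replicate numbers taken from the sample titles. The authors deposited 1 table of 60671 genes, whose header gives no unit; the deposited values were read as TPM, because each column holds decimals and sums to between 986853 and 987078. The submitters' processing notes name HISAT2, Subread, featureCounts and DESeq2, and the build hg38; versions, strand setting and treatment of multiply matching reads are not given in the sources used here. The number of further columns with values per sample was 0. The table holds no counts, so depth is unknown and count tests were not used.

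The analysis used log2(TPM + 1), on which fold changes of low genes are understated. Genes reaching 1 TPM on average were fitted together with limma 3.58.1 (trended prior, group as the only term, two-sided) in R 4.3.3, with Benjamini-Hochberg adjustment over all 12319. Confidence intervals are at 95%. Library shares and pair shares were compared by exact permutation over libraries. The members, lists and rules were chosen with earlier results of these data known. Genes named were the 5 highest and the 5 lowest tested, both genes of each pair, members at an unadjusted p under 0.05, the 3 largest differences without overlap in each direction, the stalk, the 5S group, RPS27A, FAU, RPSA, RPS6, RPS19, RPL41 and NUDT21. Other core genes at the low end, members with abundant copies, RPL34, the genes listed for their start, and BTF3, NAP1L1, EEF1A1, MTOR and LARP1 were named after their values were seen. No gene list was given a set test.

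Gene positions and start sequences came from RefSeq on GRCh38.p14. Transcript GC content and length came from GENCODE release 44 on GRCh37, matched by Ensembl identifier. As alternatives, the pseudocount was set to 0.1 or 5 and the filter was removed or raised to 5 TPM; the others were median ratios, quantile normalization, rescaling without mitochondrial genes, no mean-dependent prior, a replicate block, and omission of 1 library at a time. For library and pair shares, an alternative added pseudogenes. One further gene of the related list, and the alternative that needs it, are not reported here. The limma fit was also tested on simulated data in which 200 genes at 50 TPM or more were changed. At an adjusted p under 0.05 it recovered 0% of 1.1-fold, 76.3% of 1.5-fold and 93.7% of 2-fold changes. False calls averaged 0, 4.67 and 4.33 per run. Tables and figures were made with Python 3.11.15, pandas 2.3.3, numpy 2.4.6, scipy 1.17.1 and matplotlib 3.10.9.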

Additional observations from a re-analysis of the deposited data

How the results depend on the processing

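The count of 0 members at an adjusted p of 0.05 held under every alternative, with the lowest adjusted p of a member at 0.309 under quantile normalization. The count at an unadjusted p under 0.05, 3 as reported, was 1 with no filter, 1 with median ratios, 5 with quantile normalization, 1 without mitochondrial genes and 0 without the mean-dependent prior, and from 0 to 5 on leaving out 1 library. With the replicate block it was 7. Whether the replicate numbers pair the libraries is not stated in the labels. Deviations of same-numbered libraries correlated at -0.049 over all 12319 genes tested, and pairing among the members alone was not tested. The median log2 fold change of the members ran from -0.031 to 0.00090 on leaving out 1 library, the second KO+OE library giving the change of sign. With the 8 paralogs left out, an alternative chosen after seeing the data, it was -0.016. The difference in library share was -0.135 percentage points without the mitochondrial genome, and ran from -0.492 to -0.192 on leaving out 1 library.

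Of 33 named genes, 17 turned sign when 1 library was left out and 10 under another alternative, and the cause was not tested. The turned log2 fold changes with median ratios and without mitochondrial genes were 0.012 and 0.013 for RPL12, 0.0059 and 0.0069 for RPL22L1, 0.0046 and 0.0062 for RPL5, 0.012 and 0.014 for RPLP0, 0.0059 and 0.0075 for RPLP2, and 0.0037 and 0.0053 for RPSA. With quantile normalization they were 0.013 for RPL22L1, 0.0011 for RPL36A, 0.013 for RPL39, 0.032 for RPS19 and -0.015 for RPS27. RPL22L1 was 0.0035 with a pseudocount of 5.

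With 1 library left out, the log2 fold changes of the 17 genes ranged from -0.012 to 0.066 for NUDT21, -0.0098 to 0.0074 for RPL12, -0.059 to 0.021 for RPL22, -0.35 to 0.34 for RPL22L1, -0.16 to 0.11 for RPL36A, -0.049 to 0.061 for RPL36AL, -0.084 to 0.052 for RPL39, -0.060 to 0.0088 for RPL39L, -0.66 to 0.48 for RPL3L, -0.0014 to 0.042 for RPL41, -0.038 to 0.021 for RPL5, -0.014 to 0.013 for RPLP0, -0.044 to 0.030 for RPLP2, -0.051 to 0.0033 for RPS19, -0.017 to 0.024 for RPS27, -0.075 to 0.14 for RPS27L and -0.027 to 0.0088 for RPSA.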

Other observations

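Log2 fold change and transcript GC content were related in rank among the ribosomal protein genes, at a Spearman's rank correlation of -0.34 over 84 members, and among other genes at 100 TPM or more at -0.17 over 1002 genes. These points share 4 libraries, and no p is given.

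The named pseudogene rows together took 0.431% and 0.439% of the summed TPM in control and 0.393% and 0.434% in KO+OE, so the first KO+OE library was the lowest. RPS28P7 was lower in both KO+OE libraries than in both control libraries, whereas RPS28 overlapped. The 10 most abundant ribosomal protein genes made up 31.0% and 31.0% of the members' sum in control and 30.6% and 31.4% in KO+OE.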
